A study of Mus musculus with 7 samples.

Results

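The miR-449 cluster is a group of microRNAs encoded inside the gene Cdc20b, and its members were taken by name as the mouse rows mmu-miR-449a-5p, mmu-miR-449a-3p, mmu-miR-449b, mmu-miR-449c-5p and mmu-miR-449c-3p, 5 of 1914 mouse miRNA rows. Small RNA was sequenced from dissected lateral ventricles with their choroid plexus, in 4 libraries of TAp73 knockout mice and 3 of wild type mice, all adult and of strain C57BL/6J. TAp73 denotes p73 isoforms with an intact transactivation domain, and p73 is a transcription factor of the p53 family. How many animals lie behind each library, and the sex, exact age and knockout allele, was not given in the sources used here. Only small RNA was measured, so the loss of TAp73 was not checked in these libraries, and nothing states that they came from separate animals, so p-values measure the spread between libraries.

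MicroRNAs of the family of miR-34 and miR-449 are cut from hairpin precursors, and the retained strand guides silencing of messenger RNAs that pair with its seed, here bases 2 to 8 from the 5′ end. In vertebrate multiciliated cells, such as the ependymal cells that line the ventricles, this family is abundant and is known to repress components of the Notch pathway and the centriolar protein Cp110 as many cilia form. miR-449 is also known as a target of the cell-cycle factor E2F1. Cdc20b, its host gene, lies near Ccno and Mcidas, which act in the amplification of centrioles and in the start of the multiciliated programme.

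The mature sequences show what ties the cluster to miR-34 and how its own members differ. They are from RefSeq (build GRCm38.p6), with the seed in capitals, and 4 of the 5 members and the 5p arms of miR-34a and miR-34b were matched by name.
miR-449a-5p: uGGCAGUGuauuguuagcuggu
miR-449c-5p: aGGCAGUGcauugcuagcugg
miR-34a-5p: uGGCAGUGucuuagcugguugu
miR-34b-5p: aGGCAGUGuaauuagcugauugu
miR-449a-3p: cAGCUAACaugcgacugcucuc
miR-449c-3p: cAGUUGCUagcugcacuacccu

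The 4 listed 5p arms carry the same seed, GGCAGUG, and no other mouse row matched to a sequence had it. miR-34c-5p and miR-449b had no matched sequence, so their seeds were not checked. Aligned without gaps from the 5′ end, miR-449a-5p and miR-449c-5p were the same at 18 of 21 positions, with the substitutions U1A, U9C and U14C (the base of miR-449a-5p first), all outside the seed. Against miR-34a-5p, miR-449a-5p matched at 15 of 22 positions, and against miR-34b-5p at 10 of 22. The 3p arms of miR-449a and miR-449c have seeds of their own. The rule for reads with mismatches was not given in the sources used here. How reads altered at these 3 positions were assigned is therefore not known.

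Both hairpins lie on the plus strand of chromosome 13, and they are shown with the mature arms in capitals because the arm use below refers to them. Mir449a spans chr13:113037534-113037624 and Mir449c spans chr13:113035983-113036091.
Mir449a: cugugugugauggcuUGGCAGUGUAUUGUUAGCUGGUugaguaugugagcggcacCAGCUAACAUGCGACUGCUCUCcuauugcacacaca
Mir449c: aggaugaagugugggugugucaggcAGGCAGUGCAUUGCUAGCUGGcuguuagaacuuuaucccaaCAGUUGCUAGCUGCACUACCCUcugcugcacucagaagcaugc

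In the annotation of the same build (GENCODE M21), Mir449c, Mir449b and Mir449a follow each other in the direction of Cdc20b transcription and overlap none of its exons. All 3 lie between exons 2 and 3 of each of its annotated transcripts, in an intron of 2436 bases in the shorter transcripts and of 20124 bases in the longer ones. Mir449c starts 206 bases after exon 2. A gap of 1327 bases separates it from Mir449b (chr13:113037419-113037498), and 35 bases separate Mir449b from Mir449a. Cdc20b itself spans chr13:113035111-113091195, and Ccno and Mcidas start upstream on the same strand, at -47309 and -41266 bases from its start.

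**Figure D1:**
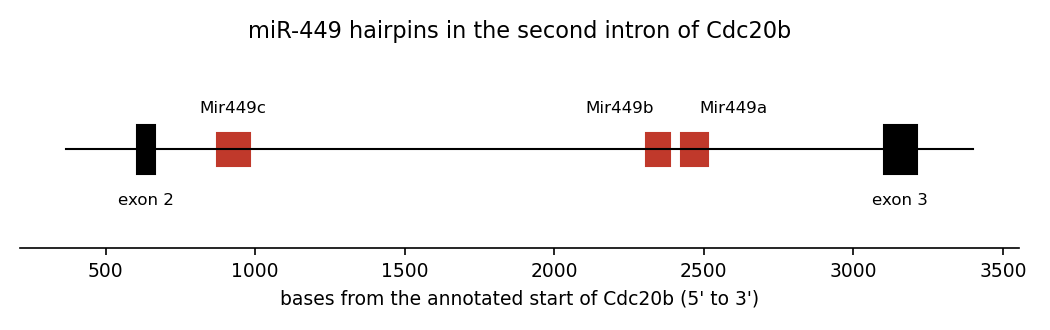
Map of the miR-449 hairpins (red boxes) between exons 2 and 3 (black boxes) of a short Cdc20b transcript, drawn to scale in bases from the annotated start of the gene. Mir449c stands alone near exon 2, while Mir449b and Mir449a lie side by side, 35 bases apart.

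Reads assigned to small RNAs ranged from 969106 in knockout replicate 3 to 9343921 in knockout replicate 1, and mouse miRNAs took 98.6% to 99.0% of them. Levels are given as reads per 1000000 mouse miRNA reads of the library (CPM), and a listed 0 leaves room for up to 3 reads, or between 0.325 CPM in knockout replicate 1 and 3.14 CPM in knockout replicate 3. Intervals on single counts cover counting error only, because reads without molecular identifiers are not independent molecules. Markers of the dissected tissue were present: miR-204-5p, abundant in choroid plexus, had 2006 to 7429 CPM in knockouts, against 2009 to 11775 CPM in wild types, and miR-124-3p of neurons had 7948 ± 1673 CPM in the knockouts (SD, n = 4), against 7441 ± 1868 CPM in wild types (SD, n = 3).

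Both abundant arms of the cluster, miR-449a-5p and miR-449c-5p, were higher in the knockouts. The other 3 members had between 0 and 2 reads over the 7 libraries and could not be compared. mmu-miR-449a-5p, the main product of the cluster, had 1748, 1193, 43 and 498 reads in knockout replicates 1 to 4, or 189.3, 155.0, 45.0 and 128.3 CPM, against 50, 62 and 73 reads, or 18.5, 28.0 and 20.02 CPM, in wild type replicates 1 to 3. The groups did not overlap, and knockout replicate 3 stood well below the other knockouts. Its mean was 129.4 ± 61.6 CPM in the knockouts (SD, n = 4), against 22.2 ± 5.11 CPM in wild types (SD, n = 3).

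mmu-miR-449c-5p, the other abundant product, had 188, 139, 9 and 85 reads in knockout replicates 1 to 4, or 20.4, 18.1, 9.42 and 21.9 CPM, against 2, 7 and 10 reads, or 0.741, 3.17 and 2.74 CPM, in the wild types. Here too the knockouts all exceeded the wild types, with knockout replicate 3 the lowest knockout. Its mean was 17.4 ± 5.57 CPM in the knockouts (SD, n = 4), against 2.22 ± 1.29 CPM in wild types (SD, n = 3). In wild type replicate 1 the 2 reads allow 0.0898 to 2.68 CPM (95% exact Poisson interval), so the wild type level of this arm is known only roughly.

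**Figure D2:**
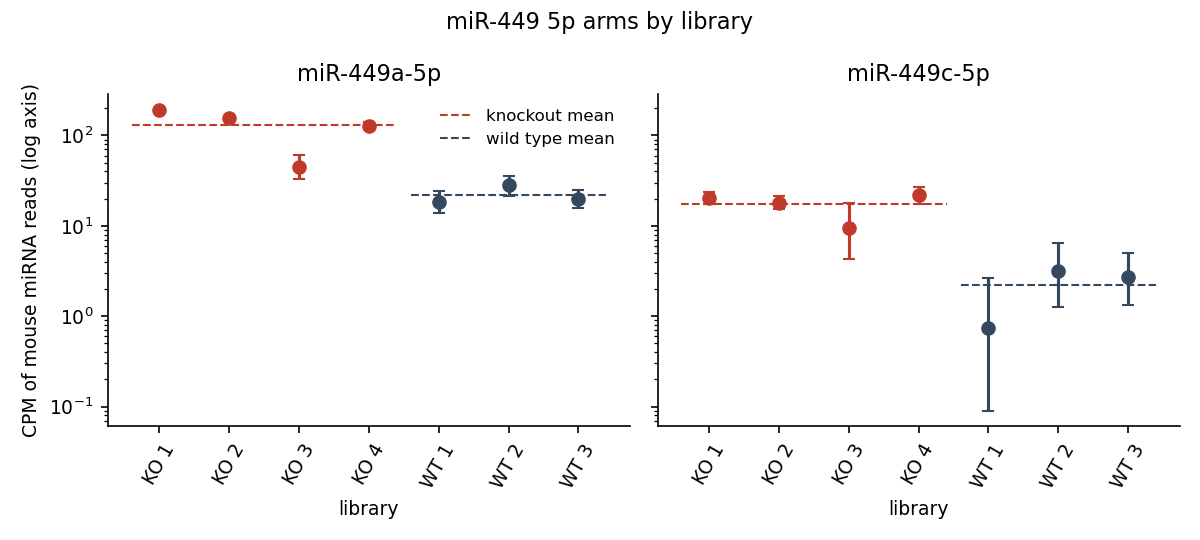
CPM of miR-449a-5p (left panel) and miR-449c-5p (right panel) in each library on a shared log axis, knockouts in red and wild types in blue, with 95% Poisson intervals as bars and group means as dashed lines. Knockout replicate 3 has 45.0 CPM of miR-449a-5p, between the other knockouts and the wild types.

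In edgeR's quasi-likelihood test over 534 miRNAs that passed the filter on low counts, miR-449c-5p rose, with a log2 fold change of 3.12 ± 0.41 (SE, 95% interval 2.22 to 4.02, adjusted p = 0.0018), and so did miR-449a-5p, with 2.67 ± 0.41 (1.76 to 3.57, adjusted p = 0.0048). These correspond to 8.70-fold and 6.34-fold higher levels. In this fit these 2 members were the only miRNAs called higher, 0.375% of those tested, while 1.12% were called in either direction. They were not alone under other settings, since 8 miRNAs were called higher in DESeq2, 9 in edgeR with no filter on low counts and 6 without wild type replicate 2. Across all tested miRNAs the median log2 fold change was -0.02, and 47.2% had a positive value and 3.56% had every knockout library above every wild type library. The next largest positive log2 fold change belonged to miR-6911-3p, at 0.98, which was not called (adjusted p = 0.37). The members were chosen with these results known. The filter asks for enough reads in as many libraries as the smaller group holds. miR-449c-5p met it in every knockout but not in every wild type, with 2 reads in wild type replicate 1. It therefore entered the test through the group where it was high. Without the filter its log2 fold change was 3.16 (edgeR). In bulk tissue, a change in the number of cells that make a miRNA and a change in its amount per cell cannot be told apart.

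**Figure D3:**
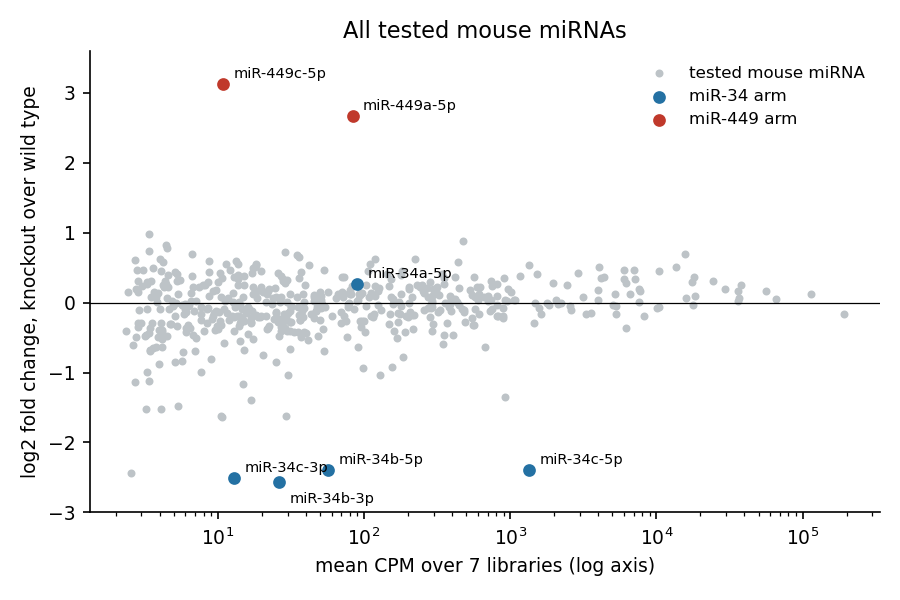
Log2 fold change of knockout over wild type (edgeR) against mean CPM over the 7 libraries (log axis) for the 534 tested miRNAs. The 2 miR-449 arms (red) stand apart above all others, at 2.67 and 3.12, and 4 of the 5 tested miR-34 arms (blue) lie between -2.56 and -2.40.

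The call for miR-449a-5p was lost without either of 2 wild type libraries: in edgeR its log2 fold change was 2.55 (adjusted p = 0.11) when wild type replicate 1 was left out and 2.57 (adjusted p = 0.051) when wild type replicate 3 was left out. That for miR-449c-5p was kept without each library in turn, with a largest adjusted p of 0.020 (edgeR).

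The knockout libraries differed among themselves in miR-449a-5p more than in most miRNAs. The highest knockout library held 4.20 times the CPM of the lowest, and the standard deviation of log2 CPM among knockouts was 0.92, larger than that of 97.4% of the tested miRNAs, whose median was 0.25. Without knockout replicate 3 it was 0.28. Among all knockouts miR-204-5p varied nearly as much, at 0.87, larger than 96.8% of the tested miRNAs. miR-34c-5p varied less, at 0.38, larger than 73.8%. The 95% Poisson interval was 32.6 to 60.6 CPM in knockout replicate 3, from 43 reads, and 117.3 to 140.1 CPM in the next lowest knockout. Knockout replicate 3 was the shallowest library and the knockout with the lowest miR-204-5p level, and the part of either in its miR-449 level was not tested. Without this library the log2 fold change was 2.92 ± 0.24 for miR-449a-5p (adjusted p = 0.00018) and 3.25 ± 0.37 for miR-449c-5p (adjusted p = 0.0019), both in edgeR.

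Set against other miRNAs, both 5p arms ranked higher in the knockouts. Counted from the most abundant mouse row, miR-449a-5p held ranks 166, 171, 251 and 179 in knockout replicates 1 to 4 and ranks 345, 296 and 345 in the wild types. miR-449c-5p held ranks 314 to 400 in knockouts and 508 to 634 in wild types. By mean level, miR-449a-5p came in knockouts between miR-344b-3p at 131.2 ± 11.0 CPM and miR-31-5p at 127.8 ± 20.8 CPM (SD, n = 4), and in wild types between miR-338-3p at 22.4 ± 5.78 CPM and miR-325-3p at 21.95 ± 3.78 CPM (SD, n = 3). These neighbours differed from it by less than the spread between libraries. The most abundant miRNA, miR-127-3p, was 950 to 4203 times as abundant as miR-449a-5p in knockouts and 7123 to 11229 times in wild types.

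Arm use in the cluster was nearly all 5p. Over the 7 libraries the Mir449a hairpin gave 3667 reads of its 5p arm and 1 read of its 3p arm, a 3p share of 0.027% (95% exact Clopper-Pearson interval 0.00069% to 0.152%). The single 3p read was in knockout replicate 1. Mir449c gave 440 reads of 5p and 2 of 3p, a share of 0.452% (0.0548% to 1.62%), with 1 read each in knockout replicates 1 and 3. With so few 3p reads no difference in arm use between genotypes was detectable at this depth. Among 297 mouse hairpins with both arm rows and at least 100 reads, the lesser arm held a median of 2.24% of the reads. Of these hairpins, 14.1% had a lesser arm share at or below that of Mir449a. This percent includes 31 hairpins whose lesser arm was listed at 0 reads, which does not by itself show absence. The related hairpins ranged widely: the 3p arm held 31.7% of the reads of miR-34b, 0.953% of miR-34c and 0.261% of miR-34a.

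mmu-miR-449b, the middle gene of the cluster, was listed with 0 reads in all 7 libraries, which allows up to between 0.325 and 3.14 CPM in a library. A listed 0 does not by itself show absence in these tables. miR-219a-5p and miR-126a-5p were also listed at 0 in all 7, although the partner rows miR-219a-2-3p and miR-126a-3p averaged 444.5 and 912.3 CPM in knockouts and 504.0 and 937.8 CPM in wild types. The 51 rows for miR-449 of other species held 0 reads, so no miR-449 reads were set aside there.

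Within the cluster, the proportion of the a and c products was compared next. miR-449c-5p made up 9.71%, 10.4%, 17.3% and 14.6% of the summed 5p reads of both in knockout replicates 1 to 4, and 3.85%, 10.1% and 12.0% in the wild types, where only 52, 69 and 83 reads stood behind the share. The 2 groups overlapped, and each wild type interval was wide (0.469% to 13.2% in replicate 1, exact Clopper-Pearson). The mean share was 13.0% ± 3.58 in the knockouts (SD, n = 4), against 8.68% ± 4.29 in wild types (SD, n = 3), a difference of 4.33 percentage points within the spread between libraries (two-sided exact permutation test over 35 splits, p = 0.26). The reads of miR-449a-5p per read of miR-449c-5p were 4.78 to 9.30 in knockouts and 7.30 to 25.0 in wild types.

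Set against miR-204-5p, the knockout libraries were nearly alike. miR-449a-5p reads amounted to 2.55%, 2.198%, 2.24% and 2.57% of miR-204-5p reads in knockout replicates 1 to 4, and to 0.223%, 1.40% and 0.170% in wild type replicates 1 to 3. Knockout replicate 3, which held the fewest of both, thus had the ratio to miR-204-5p of the other knockouts. This likeness was not seen with miR-211-5p, another miRNA of the choroid plexus. Among knockouts, replicate 3 had the highest miR-211-5p level, at 7.33 CPM from 7 reads. By contrast, it had the lowest summed level of the miRNAs hosted by Htr2c, a serotonin receptor gene of the choroid plexus. This sum was 249.2 CPM there, against 679.5 to 933.6 CPM in the other knockouts. Of these miRNAs, miR-448-3p, miR-1298-5p and miR-1912-3p were lowest in replicate 3, while miR-1264-3p and miR-764-5p were not. The ratio of miR-449a-5p to them was not tested. The log2 ratio of miR-449a-5p to miR-211-5p was 4.74 ± 1.59 in the knockouts (SD, n = 4), with a range of 2.54 to 5.94. Wild type replicate 2 had a ratio well above those of the other 2 wild types, with a miR-204-5p level of 2009 CPM against 8311 and 11775 CPM in replicates 1 and 3. On the log2 scale the ratio averaged -5.39 ± 0.12 in the knockouts (SD, n = 4), against -8.05 ± 1.65 in wild types (SD, n = 3), a difference of 2.66 or 6.32-fold. Without wild type replicate 2 the difference was 12.2-fold. The exact permutation p was 0.029, two-sided, the smallest that 4 against 3 libraries allow, and it was 0.057 when adjusted over the 2 main exact tests (this ratio and the share of c) and 0.076 over all 8 exact tests run on the 7 libraries, alternatives included. With miR-211-5p in place of miR-204-5p the difference between genotypes was 2.57 (exact permutation p = 0.086), and with the abundant miR-127-3p it was 2.61 (exact permutation p = 0.057).

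**Figure D4:**
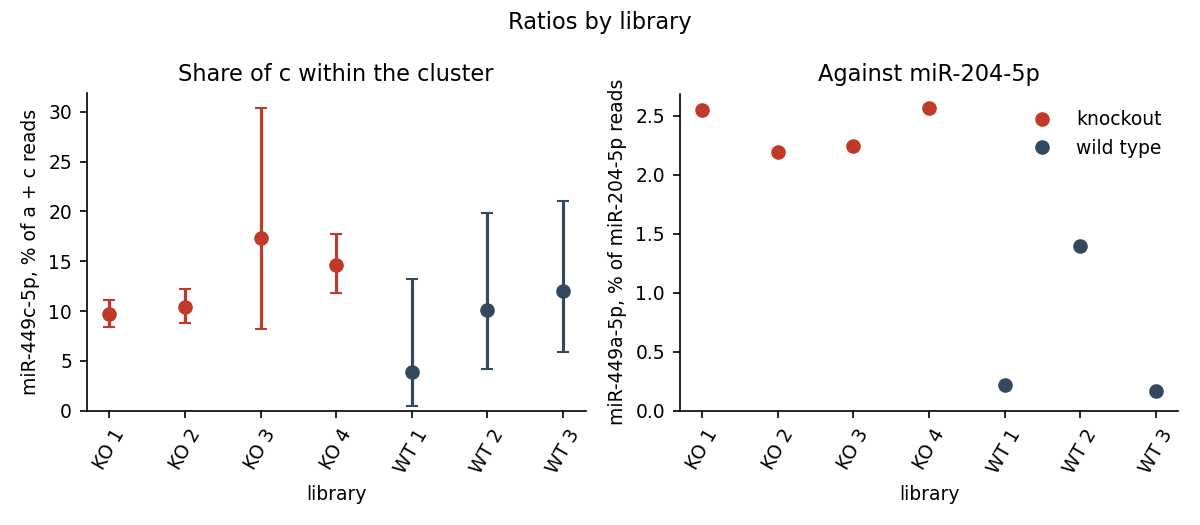
Left, miR-449c-5p as a percent of the summed miR-449a-5p and miR-449c-5p reads in each library, with 95% Clopper-Pearson intervals. Right, miR-449a-5p reads as a percent of miR-204-5p reads, which lie between 2.198% and 2.57% in the 4 knockouts (red) and at 0.223%, 1.40% and 0.170% in the wild types (blue).

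miR-449 made up more of its seed family in the knockouts. The 5p arms of miR-449a and miR-449c held 26.1%, 20.2%, 11.6% and 20.7% of the summed 5p level of miR-449 and miR-34 in knockout replicates 1 to 4, against 0.587%, 2.37% and 0.624% in wild type replicates 1 to 3. The difference in miR-449 (122.4 CPM) was small next to that in miR-34 (-2161 CPM, knockout minus wild type). The miR-449 5p arms averaged 146.9 ± 66.3 CPM in knockouts, against 24.4 ± 6.13 CPM in wild types, while the miR-34 5p arms averaged 566.0 ± 112.1 CPM in knockouts, against 2727 ± 1259 CPM in wild types (SD, n = 4 and n = 3). The family as a whole therefore had 468.0 to 856.1 CPM in knockouts, against 1318 to 3649 CPM in wild types, with groups that did not overlap, as was the case in either direction for 11.8% of tested miRNAs and with knockouts below for 8.24%. miR-34c-5p, counted with the family by its name because no sequence of it was matched, was the most abundant of these arms, at 304.7 to 555.0 CPM in knockouts, against 1174 to 3430 CPM in wild types. Read for read, miR-449a-5p stood at 37.2%, 27.9%, 14.8% and 29.2% of miR-34c-5p in knockout replicates 1 to 4 and at 0.617%, 2.39% and 0.584% in the wild types.

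Of the 6 arms of miR-34, 5 were tested and 4, those of miR-34b and miR-34c, were called lower in edgeR. These 4 were the only miRNAs called lower in this fit, 0.749% of all tested. Of the 5 tested arms, DESeq2 called 4 and limma-voom called 3. In edgeR, only 2 miRNAs were called lower without knockout replicate 1, and 2 without wild type replicate 1. miR-34a-5p, which has the same seed, had 64.1, 109.9, 89.0 and 114.4 CPM in knockouts and 112.3, 65.1 and 71.0 CPM in wild types, with overlapping groups and a log2 fold change of 0.26 ± 0.26 (edgeR adjusted p = 0.71). Among the arms whose sequence showed this seed, the miR-449 5p arms were called higher, miR-34b-5p was called lower, and miR-34a-5p was not called. miR-34c-5p, whose sequence was not matched, was called lower, with a log2 fold change of -2.40 ± 0.33 (SE, edgeR adjusted p = 0.0048).

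**Figure D5:**
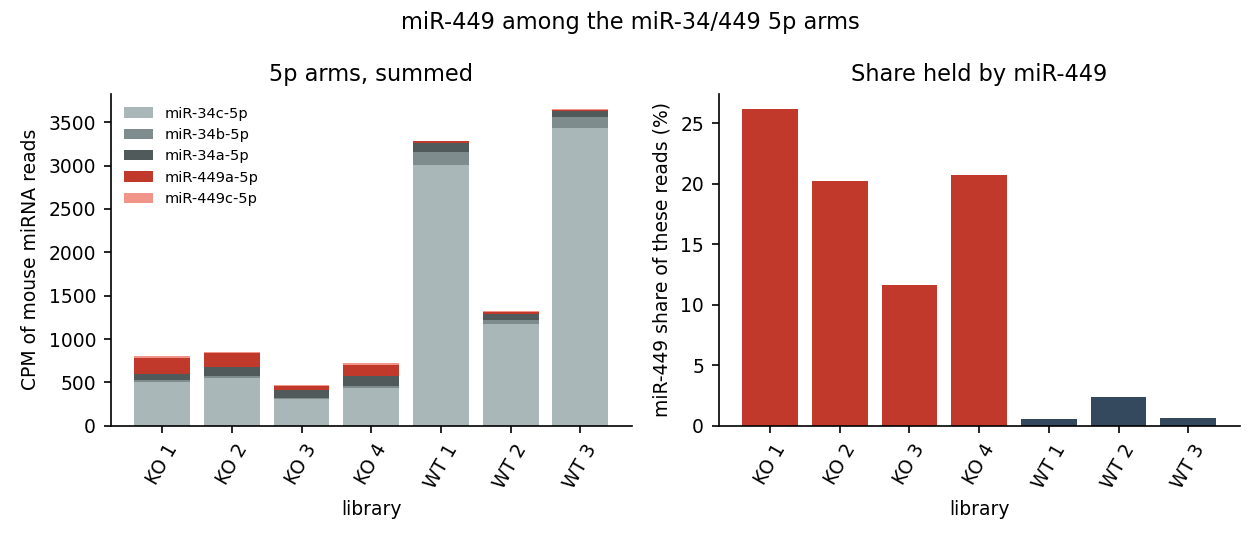
Left, CPM of the miR-34 and miR-449 5p arms stacked for each library, knockouts left of wild types. Right, the percent of this sum held by miR-449 (red bars for knockouts, blue for wild types), 11.6% to 26.1% in knockouts and 0.587% to 2.37% in wild types.

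The miRNA with the pattern most like miR-449a-5p over the 7 libraries was miR-449c-5p. Likeness was measured as the root mean square difference between log2 CPM profiles centred on their own means, so that 0 means the same pattern, and a flat profile lay at 1.32. miR-449c-5p lay at 0.52, and the next 4 were miR-6911-3p at 0.92, miR-690 at 1.02, let-7j at 1.02 and miR-128-1-5p at 1.02. None of these 4 was called, with log2 fold changes of 0.63 to 0.98 (edgeR adjusted p = 0.37 or more), and the first 3 averaged between 3.83 and 5.29 CPM in knockouts. At the other end, miR-34c-5p lay at 2.45, against a largest distance of 2.81 among the 533 compared. The centred profiles keep the difference between genotypes, so these places are not separate from the fold changes given above.

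The miRNAs of the miR-17 and miR-106b clusters, also known targets of E2F factors, were set beside it. All 9 listed were tested, 0 were called by edgeR, DESeq2 or limma-voom, 0 had an unadjusted p under 0.05 in edgeR, and their log2 fold changes ran from -0.65 for miR-18a-5p to 0.28 for miR-92a-3p, with a median of -0.07. Summed, they stood at 2813 to 3307 CPM in knockouts, against 2568 to 3243 CPM in wild types.

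Marker lists of cell types in the dissection had 0 calls in edgeR, DESeq2 and limma-voom, apart from the multiciliated list, which consists of miR-34 and miR-449 arms. An unadjusted p under 0.05 in edgeR was found for 2 neuronal markers, 2 of the progenitor and glial list, 1 hosted by Htr2c and 1 of erythrocytes, against 69 of the 534 tested miRNAs, or 12.9%. The summed levels of the lists were not tested, and the most abundant members weigh most in them. In the choroid plexus list, miR-204-5p alone had 2006 to 7429 CPM in knockouts, against 2009 to 11775 CPM in wild types. In the vessel list, miR-143-3p alone averaged 17086 CPM in knockouts, against 18614 CPM in wild types. The progenitor and glial list (miR-9-5p, miR-9-3p and miR-92b-3p) stood at 35760 to 41685 CPM in knockouts, against 28586 to 34833 CPM in wild types, without overlap, where 3.56% of single miRNAs had every knockout above every wild type, and 3 of 3 members had positive log2 fold changes, with a median of 0.31. The neuronal list stood at 35079 to 39235 CPM in knockouts, against 20955 to 35257 CPM in wild types, with 4 of 5 members positive. The miRNAs hosted by Htr2c, a serotonin receptor gene of the choroid plexus, stood at 249.2 to 933.6 CPM in knockouts, against 389.8 to 2509 CPM in wild types, with 5 of 5 negative and a median of -1.16. The choroid plexus list (miR-204 and miR-211) stood at 2016 to 7435 CPM in knockouts, against 2015 to 11789 CPM in wild types, with 3 of 3 negative. The leukocyte list stood at 590.4 to 790.5 CPM in knockouts, against 534.5 to 599.4 CPM in wild types, with 5 of 5 positive, the erythrocyte list at 138.2 to 261.8 CPM in knockouts, against 139.3 to 195.0 CPM in wild types, the oligodendrocyte list at 597.9 to 833.1 CPM in knockouts, against 603.2 to 996.7 CPM in wild types, and the vessel list at 16262 to 21213 CPM in knockouts, against 16764 to 25318 CPM in wild types. With the mean log2 level of miR-204-5p, miR-204-3p and miR-211-5p as a covariate in edgeR, the log2 fold change was 2.66 ± 0.43 for miR-449a-5p (adjusted p = 0.0086) and 3.12 ± 0.45 for miR-449c-5p (adjusted p = 0.0037). The 3 arms had equal weight, although miR-204-3p and miR-211-5p had only 108 and 119 reads over the 7 libraries. The covariate is therefore a rough measure of choroid plexus content. Beyond this fit, the part of any of the lists in the miR-449 difference was not tested.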

How the data were processed

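The deposited values are raw read counts per named small RNA, 1 table for each of 7 libraries, made by the authors from TruSeq small RNA libraries of phenol and chloroform extracted RNA, per the labels' protocols. Per the submitters' processing notes, bcl2fastq 2.17.1.14, DESeq2 and the build mm10 were used, with no role stated; which aligner and counter were used was not given in the sources used here. In each table, the 5 closing lines for unassigned reads hold 0 reads. Libraries were grouped by labelled genotype, and no batch or pairing is labelled.

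Rows of mouse miRNAs entered edgeR 4.0.16 under R 4.3.3 (TMM, filterByExpr with minimum count 10 and total 15, robust quasi-likelihood test), with Benjamini-Hochberg adjustment over all tested miRNAs and calls under 0.05. The procedure was tested on simulated counts. In these, all miRNAs had the same spread beyond counting error and no library was set apart, as knockout replicate 3 is here for miR-449a-5p. Ratios and shares were compared with exact permutation tests (log2 ratios with 0.5 reads added). Profile distances used log2(CPM + 0.5). Alternatives included DESeq2 1.42.0 and limma 3.58.1 (voom). Members and lists were chosen with earlier results of these data known. Named are the members, arms with their seed or of miR-34, the 5 nearest profiles, neighbours in level, abundant miRNAs and the listed markers.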

Additional observations from a re-analysis of the deposited data

Results flagged for a closer look

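A library far from the rest of its group was looked for in 24 values over the 4 knockouts, where chance alone gives about 1 in 20, and 3 stood out. For miR-449a-3p the gap was 1.0 of the range, because knockout replicate 1 held the only read. For miR-449c-3p, at 1.05 CPM from 1 read in knockout replicate 3, the gap was 0.897 of the range. For miR-34b-3p, an arm of the same family, knockout replicate 3 had 6.28 CPM from 6 reads against 8.23 to 8.58 CPM elsewhere among the knockouts, so that the gap was 0.850 of the range. All 3 rest on few reads, and the wild types, with 3 libraries, were not examined.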

How the results depend on the processing

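The direction of every result was kept under all alternatives run. miR-449c-5p was called in all 18 alternatives and miR-449a-5p in 16 of 18, the exceptions being the omission of wild type replicate 1 or 3; leaving out each library gave log2 fold changes of 2.43 to 2.92 for miR-449a-5p and 2.73 to 3.39 for miR-449c-5p, and leaving out knockout replicate 3 and wild type replicate 2 together gave 3.13 and 3.52. The count of called miRNAs, 6 in edgeR, was 14 in DESeq2, 19 with no filter, 19 without knockout replicate 3 and wild type replicate 2 together (chosen after seeing the data), and 3 (without wild type replicate 1) to 14 (without wild type replicate 2) when leaving out each library; the cause was not tested, though with no filter more rows were tested. The share of c was not past the threshold in the 2 alternatives that kept all libraries. With the rows of all species summed it could not change, since the miR-449 rows of other species held 0 reads. When leaving out each library the share differed by 1.91 (without wild type replicate 1) to 6.01 percentage points. There the exact test cannot pass (smallest p 0.067 or 0.10). The log2 ratio to miR-204-5p differed by 2.09 to 3.61 when leaving out each library, under the same limit, and by 2.57 with miR-211-5p and 2.61 with miR-127-3p as denominator, not past the threshold. No paired analysis was possible because the labels give no replicate numbers shared between the genotypes; the numbers used here only name the libraries. Only 2 to 10 reads of miR-449c-5p stood behind each wild type value.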
